A study of Mus musculus with 2 samples.

Results

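Megakaryocyte-lineage cells are the marrow cells that give rise to platelets, and 101 of the 9573 barcodes kept from this single-cell RNA-seq series met the rule used here for them. The members were chosen by their measured levels of platelet genes. A member had at least 1 unique molecular identifier (UMI, the tag of 1 captured RNA molecule) of at least 3 of the 6 platelet genes Pf4, Ppbp, Gp9, Gp5, Clec1b and Gp1ba, and those genes together reached 2000 CPM (UMIs scaled to the same total in every barcode). Members made up 1.06% of the kept barcodes (exact Clopper-Pearson 95% interval 0.860 to 1.28%). The study defined senescent skeletal cells of young and old mice mainly by protein levels, and used single-cell RNA-seq as support. For this, bone and marrow cells were sorted to enrich mesenchymal cells, so megakaryocyte-lineage cells were not the target of the sort. The material came from the femurs and tibiae of 3 untreated male INK-ATTAC mice of 24 months, whose transgene places an inducible caspase 8 under the p16Ink4a promoter. Cells carrying the lineage antigens CD5, CD45R, CD11b, Gr-1, 7-4 or Ter-119 were removed with magnetic beads, and live CD45- cells were then sorted by FACS. The cells of the 3 mice were pooled, taken through a 10x Chromium 3′ assay and run across 2 lanes, and whether these were lanes of the cell chip or of the sequencer is not given in the sources used here. No other age, genotype or treatment was compared here.

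The lanes were not separate samples. Of 11056 barcodes seen in either lane, 10928 were in both, and their UMI totals correlated with r = 0.999858 on the log10 scale (a description across barcodes, which share the same cells). The same RNA molecule may therefore have been counted in both lanes. Counts were therefore summed per barcode, and the whole series stands for 1 biological sample. All intervals below are exact 95% intervals that cover counting error only, they rest on the mean of both lanes, and no p-value could be computed. Each value for a class of cells is the CPM of the summed counts of that class, and each ratio is the log2 of the CPM of the members over the CPM of the 9472 other kept cells, unless another class is named.

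Megakaryocytes arise from stem and progenitor cells under thrombopoietin and share a bipotent progenitor with the erythroid lineage. They copy their genome without dividing (endomitosis), become large and polyploid, fill with alpha and dense granules, and extend proplatelets of tubulin and myosin-driven membrane into the sinusoids of the marrow. Platelets then carry the adhesion receptors for von Willebrand factor, collagen and fibrinogen, the signalling chains behind them, and the granule cargo that megakaryocytes made. In the marrow, megakaryocytes are also a source of CXCL4 (Pf4), TGF-β and other factors that act on stem cells and bone cells.

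The gate genes chose the members, so their values only describe them. The summed gate level per member ran from 3385 to 110223 CPM, with a median of 36539 CPM. Pf4, a chemokine stored in alpha granules, was at 35890 CPM in lane 1 and 35499 CPM in lane 2, against 7.95 CPM in the other cells. All 6 gate genes were found in 35 members, 5 of them in 39, 4 in 20 and 3 in 7. Outside the limit, 37 kept barcodes had 3 or more gate genes but a lower sum, which reached 1904 CPM in the nearest of them with a median of 84.9 CPM, and 4 of them lay at 1000 CPM or more. These had a median of 62844 UMIs, and 33 of them met the erythroid gate described below. Another 10 barcodes reached the sum with 2 gate genes, and 6 with 1 gate gene.

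**Figure D1:**
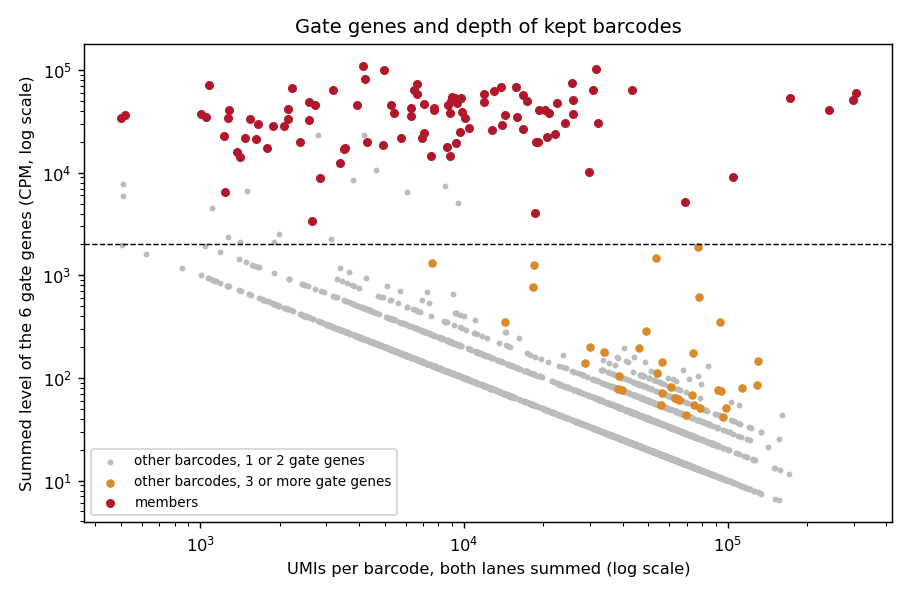
Summed level of the 6 gate genes in CPM (log scale) against UMIs per barcode (log scale) for kept barcodes with at least 1 gate gene; the dashed line is the limit of 2000 CPM. The 101 members (red) lie between 3385 and 110223 CPM over the whole range of depth, and the 37 other barcodes with 3 or more gate genes (orange) stay at or below 1904 CPM.

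Members differed widely in depth. They held from 500 to 305760 UMIs, with a median of 7694, and a median of 1710 genes. The deepest member was also the deepest of all kept barcodes, and had 9227 genes. The 5 members over 100000 UMIs held 52.8% of all member UMIs, so summed levels lean on them, and levels without these 5 cells are given where they end a 4-fold call. Mitochondrial transcripts took a median of 0.796% of the UMIs of a member, against 3.12% in the other cells. Of the members, 8 also met the gate of another class, 4 of them erythroid and 4 stromal, and Scrublet called 1 of these 8 a doublet and no other member.

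Cells of 3 other kinds served for comparison. Each needed at least 3 genes of its gate and a gate sum of 1000 CPM, and barcodes of more than 1 gate were left out. The erythroid class (gate genes including Klf1, Epor, Rhag, Ermap and Tfrc) held 5502 cells with a median of 37543 UMIs, the LEPR stromal class (Lepr, Cxcl12, Adipoq, Kitl, Ebf3) 2008 cells with a median of 5001 UMIs, and the endothelial class (Cdh5, Emcn, Ptprb, Kdr, Flt4, Stab2, Tie1) 37 cells with a median of 3836 UMIs.

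The label held against markers that the gate did not use. Itga2b, the integrin αIIb chain that defines the lineage together with Itgb3, was at 935 CPM in lane 1 and 980 CPM in lane 2, against 1.18 CPM in the other cells. Per cell it ran from 0 through a median of 529 CPM to 12506 CPM, and 88 of 101 members had a UMI (87.1%), against 2.33% of the deeper erythroid cells and 0.797% of the stromal cells, which should lack it. With every cell thinned to 2000 UMIs, 59.5% of the 84 members deep enough had Itga2b, against 0.263% of erythroid and 0.381% of stromal cells. The markers Gp1bb, Gp6, Treml1, Itgb3, Vwf, Selp, F5, Tubb1, Rgs18 and Mpig6b were each at least 4-fold higher in members too.

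Of the 5271 genes compared, those with an average of at least 20 CPM over members and other cells, 542 were at least 4-fold higher in members (10.3%) and 335 at least 4-fold lower (6.36%). A gene scarce in the other cells could enter only by its level in members, so in lists of such genes the count of higher genes leans on entry. The median ratio over all of them was −0.05. Of these calls 61.8% were higher, a split that turns with the way cells are weighed: it was 34.9% where the level of a group was the mean of the CPM of each cell (445 higher, 829 lower, median ratio −0.34) and 42.1% with every cell thinned to 2000 UMIs (469 higher, 644 lower, median ratio −0.20). Where a gene named here falls short of 4-fold as a mean over cells, or without the 5 deepest members, its ratio is given beside it. The 20 genes with the highest ratios, chosen among those found in at least 25% of the members, all exceeded the other cells by over 10 on the log2 scale. Among them Treml1, a receptor of the alpha-granule membrane, was at 938 and 954 CPM in the lanes against 0.196 CPM (a log2 ratio of 12.24, 11.64 to 12.91). Plek, the pleckstrin phosphorylated by protein kinase C in platelets, was found in 97 of 101 members, at 1482 and 1525 CPM against 1.05 CPM.

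The other leaders were of several kinds. They included receptors for ATP, thrombin and collagen (P2rx1, F2rl2, F2rl3, Gp6), the von Willebrand factor receptor subunit Gp1bb, the cation channel Trpc6, and the adaptors Lat and Dok2. Mmrn1 encodes multimerin, an alpha-granule carrier of factor V, and F10 encodes coagulation factor X. F10, known mainly as a liver product, was at 324 and 284 CPM in members, in 59 of 101 cells, against 0.126 CPM elsewhere. Serpinb2 (104 CPM), Serpina3b (108 CPM), Tesc (426 CPM), Gcsam (198 CPM), Ly6g6f (219 CPM), Diras2 (66.2 CPM) and Capn3 (163 CPM) completed the list. Exons of Gp1bb overlap those of Sept5, and exons of Capn3 those of Ganc, on the same strand, so reads of these pairs cannot be told apart with certainty. Serpina3b belongs to a family of near-identical genes, so its count is uncertain too.

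**Figure D2:**
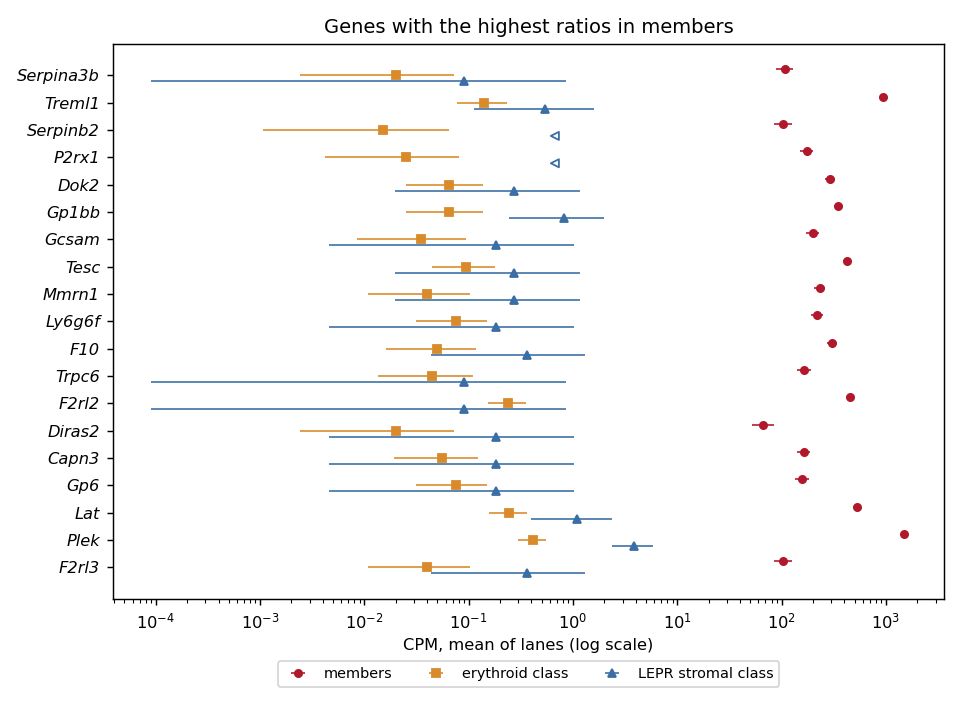
CPM (log scale) of genes among the 20 with the highest ratios, in members, erythroid cells and LEPR stromal cells, with exact 95% counting intervals; open triangles mark the upper bound where a class had no UMI. Members sit at 66.2 CPM (Diras2) to 1504 CPM (Plek), and the other classes at 3.82 CPM or less.

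Against the highest of the 3 comparison classes, the 10 leading genes included P2rx1, Serpinb2, Rab37, Il21r, Trpc6, F2rl2, Treml1, Cd226 and Pls1. Il21r, a cytokine receptor chain known from lymphocytes, was at 59.7 CPM (45.9 to 76.3) in 31 members, with no UMI in stromal or endothelial cells and 0.0250 CPM in erythroid cells. Cd226, an adhesion receptor of platelets and lymphocytes, was at 175 CPM (151 to 202) in 58 members. Pls1, an actin-bundling plastin, was at 102 CPM (83.7 to 123) in 49 members.

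The promoters of these genes were read on both strands for short words of 3 kinds of factor that act in megakaryocytes, in the RefSeq windows of 300 bases on GRCm38.p6 that reach 250 bases before and 50 after a start site. GATA factors were searched as AGATAA and TGATAA. ETS factors such as Fli1 were searched as AGGAAG and CGGAAG. The factor NF-E2, which Nfe2 encodes in part, was searched as TGAGTCA. RefSeq held windows for 18 of the 20 leading genes, 20 windows in all, of which 8 had a GATA word, 7 an ETS word and 1 the NF-E2 word. Over the 542 higher genes, 438 matched by symbol, and 14.6% of their 591 windows held a GATA word, against 9.16% for genes of neither direction, 14.8% for lower genes and 18.6% of all 32851 windows. ETS words were in 54.8% of the windows of higher genes against 58.6%, 44.4% and 46.5% in these 3 sets, and the NF-E2 word in 5.08% against 2.80%, 4.50% and 5.20%. The shares of GATA and ETS words for higher genes lay within the range of the other 3 sets, and so did that of NF-E2. A match describes the letters only. The windows that hold both a GATA and an ETS word among the leading genes are given here with that of Itga2b, 5′ to 3′ on the strand of the gene, in lower case with each word in capitals.

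F2rl2 (chr13:95696670-95696969, plus strand): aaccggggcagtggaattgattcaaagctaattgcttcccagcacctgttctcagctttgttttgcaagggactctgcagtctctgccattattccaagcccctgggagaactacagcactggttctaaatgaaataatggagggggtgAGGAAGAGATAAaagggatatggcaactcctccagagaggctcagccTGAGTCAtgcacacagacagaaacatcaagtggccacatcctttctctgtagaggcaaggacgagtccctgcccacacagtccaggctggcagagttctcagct
F2rl3 (chr8:72761409-72761708, plus strand): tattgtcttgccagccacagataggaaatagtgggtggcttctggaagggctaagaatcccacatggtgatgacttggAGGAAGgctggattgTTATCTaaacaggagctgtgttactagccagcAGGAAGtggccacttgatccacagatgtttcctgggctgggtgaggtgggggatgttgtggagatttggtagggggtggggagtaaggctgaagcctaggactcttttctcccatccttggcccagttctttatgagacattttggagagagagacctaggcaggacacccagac
Ly6g6f (chr17:35085546-35085845, minus strand): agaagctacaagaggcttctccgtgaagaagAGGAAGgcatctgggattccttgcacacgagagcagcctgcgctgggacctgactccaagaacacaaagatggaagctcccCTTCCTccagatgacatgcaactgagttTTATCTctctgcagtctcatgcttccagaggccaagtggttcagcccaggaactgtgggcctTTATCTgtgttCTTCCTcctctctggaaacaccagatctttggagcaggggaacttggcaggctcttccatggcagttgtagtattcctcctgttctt
Itga2b (chr11:102469834-102470133, minus strand): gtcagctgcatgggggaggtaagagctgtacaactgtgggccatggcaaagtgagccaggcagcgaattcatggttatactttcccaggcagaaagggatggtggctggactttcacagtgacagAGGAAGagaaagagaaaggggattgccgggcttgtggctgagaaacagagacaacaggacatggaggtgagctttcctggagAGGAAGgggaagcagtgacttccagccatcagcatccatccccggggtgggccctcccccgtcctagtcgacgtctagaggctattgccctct

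In F2rl2, which encodes the protease-activated receptor 3, a cofactor for thrombin signalling in mouse platelets, the ETS and GATA words lie end to end, 101 and 95 bases before the start site, and the NF-E2 word lies 54 bases before it. The window of F2rl3, which encodes the signalling thrombin receptor PAR4, has its GATA word between a pair of ETS words. Itga2b has a pair of ETS words and none of the GATA words searched in this window. F2rl2 was at 452 and 448 CPM in the lanes against 0.217 CPM in other cells, and F2rl3 at 101 and 105 CPM against 0.0739 CPM.

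The receptors and adhesion molecules of platelets were higher almost as a whole. Of 29 genes listed, 25 entered the comparison and 24 were at least 4-fold higher, with a median ratio of 8.32. The exception was Itgb1, the widely used integrin β1 chain, at 412 CPM against 206 CPM (log2 0.99). The fibrinogen receptor chains Itga2b (log2 9.67, 9.41 to 9.94) and Itgb3 (log2 9.68, 9.36 to 10.02) had ratios whose intervals overlap. The collagen receptor Gp6 was at 158 CPM, and Fcer1g, the Fc receptor chain that signals for it, at 623 CPM against 3.20 CPM. The tetraspanin Cd9 was at 2407 and 2332 CPM and in 96.0% of members, and it was also carried by 57.7% of stromal cells at 300 CPM.

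Some of these receptors were shared with endothelium. Pecam1 was at 43.7 CPM in members and 1137 CPM in the endothelial class, F11r at 73.8 and 221 CPM, Esam at 70.0 and 500 CPM, and Itga6 at 238 and 325 CPM. Selp, the P-selectin of alpha granules and of endothelial Weibel-Palade bodies, was at 175 CPM in members and 19.5 CPM in endothelial cells. The prostaglandin receptor Ptger3, the tetraspanin Cd151 and the ADP receptor P2ry1 had the smallest ratios among those past 4-fold, at 2.58, 2.65 and 2.74.

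Signalling genes behind these receptors followed. Of 33 listed, 29 entered and 27 were at least 4-fold higher, none lower, with a median ratio of 6.87. Rap1b, the small GTPase that switches on integrin αIIbβ3, was at 2566 CPM against 69.7 CPM, and Rasgrp2, its calcium-driven exchange factor, at 939 and 948 CPM against 5.96 CPM. Rgs18, a regulator of G-protein signals in platelets, was at 949 CPM against 5.94 CPM, and Gng11, a G-protein γ chain, at 739 CPM against 10.8 CPM. Gnaz, the αz chain that couples the adrenaline receptor, was at 271 and 278 CPM against 0.248 CPM (log2 10.11).

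The enzymes that make lipid mediators of platelets were found together. Alox12, the platelet 12-lipoxygenase, was at 359 CPM (324 to 397) against 0.504 CPM. Ptgs1 and Tbxas1, which turn arachidonic acid into thromboxane, were at 171 CPM and 163 CPM against 0.626 and 0.830 CPM. Pla2g4a, which frees arachidonic acid, was at 110 CPM against 10.8 CPM. Genes of the cyclic nucleotide arm were higher too, with the phosphodiesterases Pde3a at 115 CPM and Pde5a at 331 CPM, and Mrvi1, the substrate of the cGMP kinase, at 359 CPM. Rap1a (log2 1.95) and the calcium sensor Stim1 (log2 1.00) were the 2 entering genes short of 4-fold.

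Alpha-granule cargo was mixed. Of 26 genes, 16 entered, 13 were at least 4-fold higher and 1 lower, with a median ratio of 4.26. Von Willebrand factor (Vwf) was at 341 CPM in each lane against 5.45 CPM (log2 5.97), and at 5.05 without the 5 deepest members. F5, coagulation factor V, was at 195 and 186 CPM against 0.191 CPM. Thbs1, thrombospondin 1, was at 297 CPM against 7.4 CPM, Timp3, an inhibitor of metalloproteinases, at 813 CPM against 7.99 CPM, and Clu, clusterin, at 499 CPM against 44.1 CPM. Lyz2, the lysozyme best known from myeloid cells, was at 327 and 329 CPM in 68 of 101 members, against 1.45 CPM.

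The cargo that was not higher belonged to genes at high levels in stroma. Sparc was at 49.3 CPM in members and 1148 CPM in LEPR stromal cells, Serpine2 at 507 and 4785 CPM, and Gas6 at 23.5 and 1919 CPM. Gas6 was 4-fold lower than in all other cells (log2 −2.09), a call that ends without the 5 deepest members (−1.33). Ltbp1, which binds latent TGF-β, was at 90.2 CPM (log2 2.81), at 1.21 without the 5 deepest members, at 0.50 as a mean over cells and at −0.71 with every cell thinned to 2000 UMIs.

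Of the 20 genes that build and release granules, 13 entered and 9 were at least 4-fold higher, with a median ratio of 2.61. Rab27b, the GTPase of dense-granule docking, stood out at 840 and 816 CPM against 1.04 CPM (log2 9.64), and Slc35d3, whose loss empties dense granules in mice, was at 56.8 CPM against 0.396 CPM. The fusion genes Stx11, Stxbp2, Unc13d and Snap23 had ratios between 2.11 and 2.89, with erythroid levels of 17.1 to 36.1 CPM beside 102 to 158 CPM in members. Vamp8, Lamp1, Cd63 and Ap3b1 did not reach 4-fold.

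The cytoskeleton of proplatelet formation took a large part of the transcripts. The 28 genes listed summed to 48912 CPM in members and 2902 CPM in the other cells, and 23 of 27 entering genes were at least 4-fold higher, with a median ratio of 3.03. Most of the sum was Tmsb4x, thymosin β4, an actin-sequestering peptide, which every member carried, at 32147 and 31930 CPM against 266 CPM. Stromal cells had 3349 CPM and endothelial cells 7024 CPM of it. Tpm4, the tropomyosin of platelet stress fibres, was at 1412 CPM against 11.2 CPM, Zyx, zyxin, at 763 CPM against 2.37 CPM, and Fermt3, the kindlin of blood cells, at 1131 CPM against 109 CPM.

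Among tubulins, Tubb1, the β1-tubulin of the platelet ring, was at 35.3 and 44.4 CPM in 28 members against 0.157 CPM (log2 8.0, 7.17 to 8.88), and at 8.94 without the 5 deepest. Tuba8 was at 102 CPM against 0.109 CPM, and Tuba4a at 1197 CPM against 257 CPM, with 279 CPM in erythroid cells. Myh9, the non-muscle myosin heavy chain whose mutations cause macrothrombocytopenia, was at 435 CPM against 79.6 CPM, and its light chain Myl9 at 294 CPM against 4.29 CPM. Diaph1, a formin, was at 250 CPM (log2 2.82), but at 1.60 without the 5 deepest members. Tpm1, Cfl1, Pdlim1 and Rhoa were short of 4-fold, but Tpm1 reached 2.15 without the 5 deepest members and Pdlim1 2.55 as a mean over cells.

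**Figure D3:**
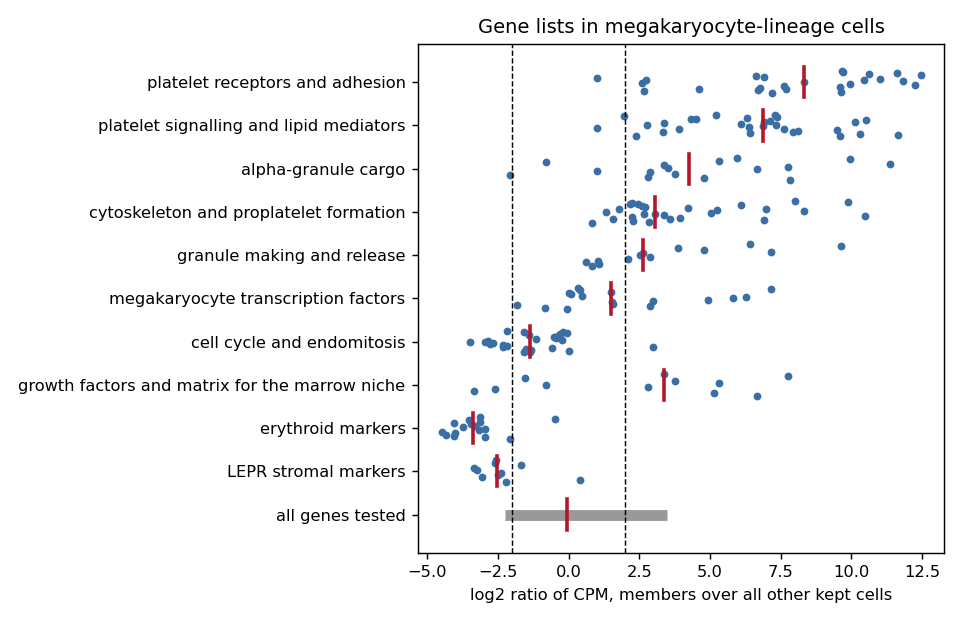
Log2 ratio of CPM in members over all other kept cells for each entering gene (blue) of 10 lists, with list medians (red); the grey bar spans the middle 90% of all 5271 genes and dashed lines mark 4-fold. Medians run from 8.32 for platelet receptors down to −3.39 for erythroid markers, against −0.05 for all genes.

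Transcription factors split into those shared with the erythroid class and those not. Of 23 measured, 17 entered and 6 were at least 4-fold higher, none lower. Gata1, the factor that both lineages need, was at 123 and 121 CPM in members, 105 CPM in erythroid cells and 9.36 CPM in stromal cells. Its cofactor Zfpm1 (FOG1) was at 290 CPM in members and 281 CPM in erythroid cells, Tal1 at 115 and 124 CPM, Lmo2 at 250 and 282 CPM, and Gfi1b at 103 and 80.3 CPM. The intervals of members and erythroid cells overlapped or nearly met for these genes, while stromal cells had 5.27 to 37.2 CPM. Nfe2, the factor of late maturation and platelet release, was at 101 CPM in members against 38.5 CPM in erythroid and 3.91 CPM in stromal cells.

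The 6 higher factors included Fli1, Mef2c, Meis1, Etv6 and Cbfa2t3, of which Etv6 and Cbfa2t3 did not reach 4-fold as a mean over cells (log2 1.79 and 1.01). Fli1, the ETS factor that opposes the erythroid programme, was at 218 and 244 CPM against 0.220 CPM in erythroid cells, with 169 CPM in endothelium. Mef2c was at 596 and 582 CPM against 1.51 CPM in erythroid cells, and Meis1 at 77.0 CPM against 0.0650 CPM. Klf1, the erythroid factor that Fli1 counteracts, was at 29.6 CPM (20.2 to 41.9) in members, against 286 CPM in erythroid cells and 19.4 CPM in stromal cells, which should lack it. Without the 5 deepest members Klf1 lay lower still relative to the other cells, at −3.79 against −3.15.

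Runx1 showed another order. It was at 121 CPM (101 to 144) in members and 30.5 CPM in erythroid cells, but at 1181 CPM in the LEPR stromal class. Its ratio against all other cells was 0.41, and −1.85 as a mean of the CPM of each cell, which gives the many stromal cells more weight. Gata2 was at 18.8 CPM in 12 members against 3.25 CPM in erythroid and 110 CPM in endothelial cells, and Hhex at 32.4 CPM in 21 members, and neither entered the comparison. Erg had no UMI in any member, which allows up to 2.82 CPM, with 71.5 CPM in endothelium, and Mecom had 0.940 CPM.

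**Figure D4:**
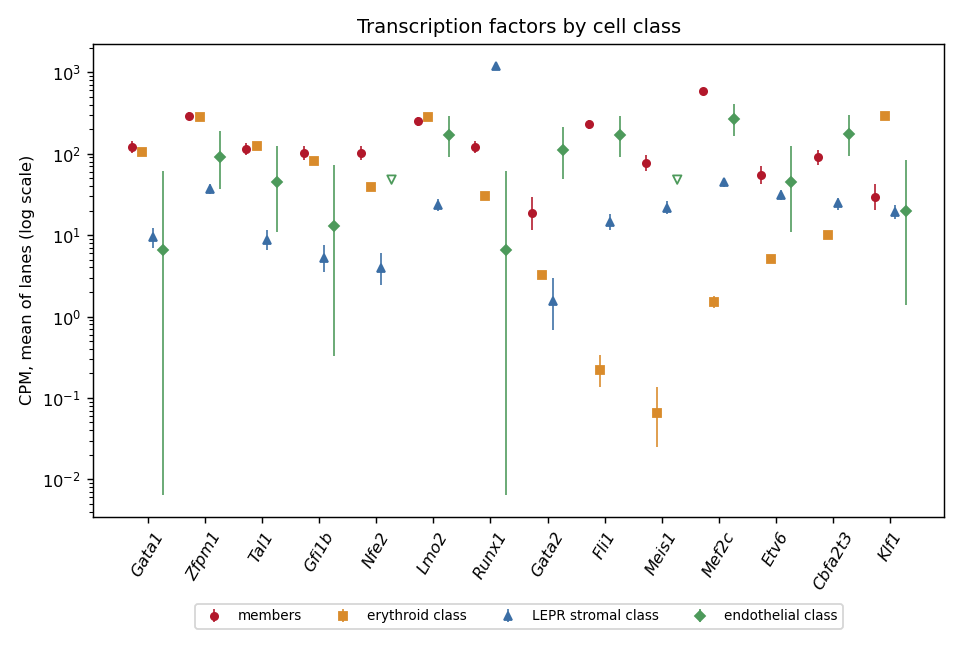
CPM (log scale) of megakaryocyte transcription factors and of the erythroid factor Klf1 in members and 3 comparison classes, with exact 95% counting intervals; open triangles mark the upper bound where the endothelial class had no UMI. Members lie near the erythroid class for Gata1, Zfpm1, Tal1, Gfi1b and Lmo2, above it for Fli1, Meis1 and Mef2c, and below it for Klf1.

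Few genes of the cytokine and stem cell programme reached the level for entering. Of 16 genes of thrombopoietin and cytokine signalling, 4 entered and 2 were at least 4-fold higher. Stat3, a transcription factor that cytokine receptors activate, was 1 of the 2 (62.9 CPM, log2 2.52, and 0.53 as a mean over cells). Jak2, a kinase of cytokine receptors, was at 91.1 CPM against 35.5 CPM (log2 1.36). Of 18 early and stem cell genes 6 entered, all of them at least 4-fold higher, among them Meis1, Angpt1, Slamf1 (47.0 CPM) and Muc13 (49.8 CPM). All 18 summed to 93.2 CPM in the other cells, so genes entered mostly through the members, and the 12 that did not enter were not compared. Of 16 genes of late megakaryocytes, 14 entered and all 14 were at least 4-fold higher, with a median ratio of 9.66. The late genes summed to 6989 CPM in members against 20.97 CPM in the other cells. With so little elsewhere, these genes could reach an average of 20 CPM only through the members. The count of 14 was therefore all but set by entry.

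Cell cycle genes of replication were lower in members, and the mitotic genes that entered lay below the other cells by less than 4-fold. Of 31 genes 27 entered, 1 was at least 4-fold higher and 9 at least 4-fold lower, with a median ratio of −1.38. The lower genes were those of licensing and replication, Cdt1 (10.3 CPM against 116 CPM, log2 −3.48), Ccne1, Ccne2, Cdc6, Gmnn, Mcm2, Mcm5 and Pcna (125 CPM against 624 CPM, log2 −2.32, and −1.35 as a mean over cells), and the proliferation marker Mki67 (256 and 253 CPM against 1146 CPM, log2 −2.17). The mitotic genes Cdk1 (179 CPM against 207 CPM), Ccnb1 (129 against 134 CPM), Ccnb2 (170 against 211 CPM) and Cdca8 (234 against 276 CPM) had ratios of −0.32 to −0.05. Without the 5 deepest members these 4 ratios were −0.71 to −1.39. The mitotic kinases Aurka, Aurkb and Plk1 and the cytokinesis gene Racgap1 had ratios of −0.54 to −0.39. Lower ratios were those of Top2a (−1.58), the topoisomerase that untangles replicated DNA, of Ccna2 (−1.42), cyclin A2, and of Birc5 (−1.17), which encodes survivin. The higher gene was Ccnd2, cyclin D2, at 229 and 215 CPM against 28.1 CPM. Other cells are mostly erythroid here, and stromal cells had 13.1 to 22.2 CPM of the 4 mitotic genes.

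A cell was called cycling when at least 3 of the 8 genes Mki67, Top2a, Cdk1, Ccnb1, Ccnb2, Ccna2, Birc5 and Cdca8 had a UMI. The call took 36 of 101 members (35.6%, 26.4 to 45.8%), 95.3% of erythroid cells and 4.93% of stromal cells. With every cell thinned to 2000 UMIs it took 20 of 84 members (23.8%, 15.2 to 34.3%), 77.9% of 5317 erythroid cells and 1.85% of 1838 stromal cells, and 17 members, 185 erythroid and 170 stromal cells were too shallow. The share of members lay between these classes at either depth. The call reads messages of a few genes and cannot tell endomitosis from division.

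Of 38 growth factors, cytokines and matrix genes of the marrow niche, 11 entered, 7 were at least 4-fold higher and 2 lower. Tgfb1, the latent TGF-β1 that megakaryocytes release, was at 606 and 657 CPM against 61.1 CPM, and its level was 61.2 CPM in erythroid, 35.3 CPM in stromal and 110 CPM in endothelial cells. Pdgfb, the PDGF chain of platelets, was at 55.9 CPM in 28 members against 0.261 CPM, with 227 CPM in endothelium. Angpt1, the ligand of the Tie2 receptor, was at 144 CPM (log2 3.74, and 1.88 as a mean over cells), below the 193 CPM of stromal cells, and Thbs1 at 297 CPM beside 131 CPM in stromal cells. Il1b, interleukin 1β, was at 39.1 and 38.9 CPM in 25 members against 1.12 CPM (log2 5.12).

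The niche genes that were lower were the stromal factors Cxcl12 and Kitl. Cxcl12 was at 185 CPM in members and 21746 CPM in stromal cells, and at 22.7 CPM in the 93 members that met no other gate. In the 8 members that met one it was at 1470 CPM. Il1a, interleukin 1α, did not enter, but had a UMI in 17 members (25.4 CPM, 16.7 to 36.9) against 0.0528% of other cells.

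The genes of blood cells and immune defence were partly present. Of 21 listed, 8 entered and 4 were at least 4-fold higher, none lower. These were Coro1a, an actin regulator of blood cells, at 608 and 635 CPM against 2.32 CPM, Laptm5, a lysosomal protein of blood cells, at 228 CPM against 2.61 CPM, and the interferon-induced Ifitm2 (722 CPM) and Ifitm3 (1503 CPM), whose ratios of 2.35 and 2.95 were 1.55 and 1.73 as a mean over cells. Stromal cells had 546 CPM of Ifitm2 and 1449 CPM of Ifitm3, and erythroid cells 114 and 126 CPM. B2m, H2-D1 and H2-K1 were at 979, 577 and 342 CPM, below the 2035, 2630 and 2492 CPM of stromal cells.

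The antigens of the sort were low but not all absent. Ptprc, which encodes CD45, was at 16.4 CPM (9.66 to 26.2) in 10 of 101 members, against 2.64 CPM in the other cells, and it was below the level for entering. Itgam, Ly6g and Cd5 had no UMI, which allows up to 2.82 CPM each. Spn, which encodes CD43 and was no target of the sort, was at 32.4 CPM beside 35.7 CPM in the erythroid class.

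Markers of other cells were read over whole lists. Of 16 erythroid markers all entered, 15 were at least 4-fold lower and Epor was not (56.4 CPM against 86.3 CPM in erythroid cells). The list summed to 2484 CPM in members, 37349 CPM in erythroid cells and 2409 CPM in stromal cells. In the 93 members of no other gate it summed to 1254 CPM, and in the 8 members of another gate to 12251 CPM. The ratio of Aqp1, a water channel, was −2.07, and −1.87 without the 5 deepest members and −1.61 as a mean over cells. Of 12 stromal markers 10 entered and 8 were at least 4-fold lower, with a sum of 424 CPM in members and 41266 CPM in stromal cells, and of 120 CPM in the 93 members of no other gate. Without the 5 deepest members Lepr, Cxcl12, Ebf1, Pdgfrb and Igfbp5 were less than 4-fold lower, with ratios of −1.56 to −1.13. None of 12 endothelial markers entered and 7 were at 0, with a sum of 62.5 CPM against 7719 CPM in endothelial cells. None of 8 mast cell and basophil markers entered, with 4 at 0 and a sum of 4.23 CPM. Of 12 myeloid markers only Lyz2 entered, and 8 were at 0, among them S100a9, Mpo, Csf1r and Ctss. Of 11 B, plasma and T cell markers, 3 entered and all 3 were at least 4-fold lower, and 5 were at 0.

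The 10 lowest ratios among genes of at least 100 CPM elsewhere belonged to globins (Hba-a1, Hbb-bs, Hbb-bt), immunoglobulins (Ighg2c, Ighm, Igkc, Ighg2b), the erythroid genes Slc4a1 and Trim10, and Acp5, the acid phosphatase of osteoclasts. Hbb-bs was at 520 and 516 CPM in members, 11261 CPM in erythroid cells and 699 CPM in stromal cells, which do not make it. In the 96 members up to 100000 UMIs it was at 785 CPM (709 to 866), above the stromal level, and in the 5 deepest at 280 CPM. The part of free RNA in these levels was not tested.

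Members varied with depth. They were split by UMIs into a shallow group of 34 (median 1983 UMIs), a middle group of 34 (median 8147) and a deep group of 33 (median 22075). The late megakaryocyte genes summed to 13728 CPM (12546 to 14992) in the shallow group, 6047 CPM (5642 to 6473) in the middle and 6861 CPM (6690 to 7035) in the deep group. Platelet receptors were also highest in the shallow group, with 17579, 6894 and 8685 CPM, and so was alpha-granule cargo, with 10583, 3642 and 5025 CPM. The cytoskeleton list ran from 97979 through 56572 to 45748 CPM. Granule making and release differed little between the groups, with 2798 CPM (2279 to 3400), 2423 CPM (2170 to 2698) and 2714 CPM (2606 to 2824), and the interval of the shallow group overlapped both others. The gate genes, which chose the members, ran the other way, with 37942, 39723 and 44855 CPM. Of the 891276 UMIs of the deep group, as the mean of the lanes, 562330 came from the 5 members over 100000 UMIs. Without these 5 the deep group had 6276 CPM of late genes, 5703 CPM of platelet receptors, 3314 CPM of cargo, 54173 CPM of the cytoskeleton list and 40187 CPM of the gate genes. In the shallow group ribosomal protein genes took 11.03% of UMIs against 22.1% in the deep group.

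The genes that led this difference were chosen after their values were seen, as the 10 largest ratios each way among genes averaging at least 200 CPM. Tubb1 was at 388 CPM (212 to 651) in the shallow and 25.2 CPM (15.9 to 38.0) in the deep group, Myl9 at 2632 and 204 CPM, Mmd at 637 and 20.8 CPM, Ecm1 at 554 and 15.1 CPM, and Tsc22d1 at 4183 and 290 CPM. Igfbp5 (1316 and 49.4 CPM) and Igkc (637 and 51.1 CPM), markers of stromal and plasma cells, were among them too. The others of these 10 were Ube2o, Igfbp4 and Ptpn18. Without the 5 deepest members the deep group was at 56.2 CPM of Tubb1, 444 CPM of Myl9 and 132 CPM of Igfbp5, still below the shallow group. The 10 genes of the deep group were Tspan32, Rrbp1, Srp9, Tmbim4, Hsp90b1, Jun, Hnrnpa1, Pdia6, Spcs2 and Dnajc3, each found in 1 to 6 cells of the shallow group. Tspan32, a tetraspanin, was at 426 CPM in the deep group and 268 CPM without the 5 deepest members, against 41.6 CPM in the shallow group. Hsp90b1, a chaperone of the endoplasmic reticulum, was at 1212 CPM and, without the 5 deepest, at 606 CPM, against 139 CPM. Dnajc3 was at 366 CPM and, without the 5 deepest, at 149 CPM (interval 110 to 197), a value inside the shallow group's interval of 11.5 to 222 CPM. Spcs2 likewise fell from 517 to 240 CPM, inside the shallow group's 23.4 to 264 CPM. Mef2c ran from 125 CPM (37.4 to 304) in the shallow through 467 in the middle to 627 CPM (576 to 681) in the deep group, which was at 505 CPM without the 5 deepest.

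Other cells' markers moved with depth as well. The stromal list summed to 2507, 1025 and 247 CPM from the shallow to the deep group (649 CPM without the 5 deepest). These sums came from a few cells, since the median cell had 0, 0 and 38.5 CPM and the highest 69095, 22913 and 7478 CPM. From the shallow to the deep group, the erythroid list summed to 4862, 2405 and 2400 CPM (3061 CPM without the 5 deepest), and mitochondrial UMIs took a median of 2.59%, 0.404% and 0.426% of a cell. The cycling call took 2 of 34, 14 of 34 and 20 of 33 members, and with thinning to 2000 UMIs 1 of 17, 8 of 34 and 11 of 33 (33.3%, 17.96 to 51.8%). The part of these in the differences between groups was not tested.

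**Figure D5:**
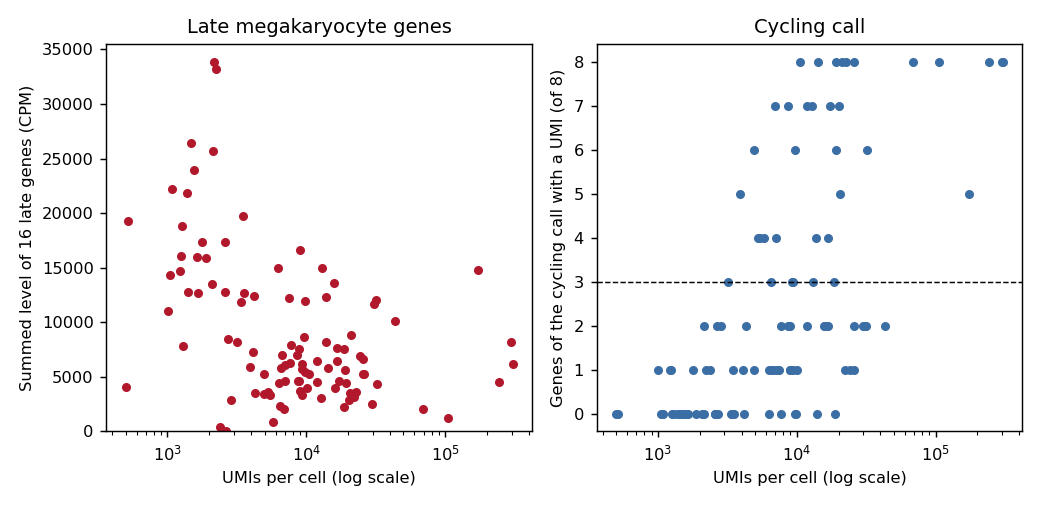
Left, the summed level of 16 late megakaryocyte genes (CPM) in each of the 101 members against its UMIs (log scale); right, how many of the 8 genes of the cycling call had a UMI, with the limit of 3 dashed. Late genes are highest in cells of few UMIs, with 13728 CPM in the shallow group against 6861 CPM in the deep group, and 20 of 33 deep members pass the cycling call against 2 of 34 shallow ones.

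The 5 members over 100000 UMIs had from 104976 to 305760 UMIs and a median of 8623 genes. All of them passed the cycling call, which at this depth needs few transcripts, and 3 of the 5 passed it when thinned to 2000 UMIs. In 1 of them another gate was met too. Against the other 96 members they were higher in mitochondrial messages (mt-Cytb at 4721 against 1019 CPM), in Arl6ip1 (726 against 147 CPM), in the centromere protein gene Cenpa (366 against 99.6 CPM) and in Diaph1 (378 against 108 CPM). They were lower in Gm42418 (6004 against 45321 CPM) and Gm26917 (51.6 against 819 CPM), in Myl9 (64.0 against 551 CPM) and in Tpm2 (98.7 against 882 CPM). Their late genes summed to 7203 CPM, against 6749 CPM in the other members, and ran from 1210 to 14797 CPM among the 5 cells. Platelet receptors summed to 10429 against 6882 CPM and alpha-granule cargo to 6026 against 3926 CPM, and their stromal list was at 11.6 CPM.

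Of the genes that the study followed in its senescent cells, 13 were below the level for entering, and 1 had no UMI in members. Of 24 genes, 11 entered, Il1b and Bcl2l1 were at least 4-fold higher, and Mki67 and Cd24a at least 4-fold lower. Over all 5271 genes compared, 10.3% were higher and 6.36% lower, and counts this small are not read as a trait of the list. Bcl2l1, the survival factor BCL-XL on which platelet life span depends, was at 35.3 and 40.7 CPM in 28 members against 9.24 CPM (log2 2.04, 1.55 to 2.49), and its ratio as a mean over cells was 1.04. Bcl2 was at 5.17 CPM in members and 88.9 CPM in stromal cells, Mcl1 at 129 CPM and Bax at 256 CPM. Cd24a was at 94.9 CPM beside 1213 CPM in erythroid and 73.7 CPM in stromal cells. Cdkn2a, the p16 locus, had a UMI in 1 of 101 members, and Cdkn1a in 12 at 14.1 CPM (7.89 to 23.2).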

How the data were processed

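UMI counts per gene and barcode were deposited by the authors as 1 raw matrix per lane, with barcodes already called as cells. Per the labels, reads were processed with Cell Ranger on mm10. The lanes held the same pooled cells, so their counts were summed per barcode. Barcodes with at least 200 genes and at most 20% mitochondrial UMIs were kept (9573 of 11056). Levels were CPM of summed counts, with exact Poisson intervals, exact conditional binomial intervals for ratios and Clopper-Pearson intervals for shares, all at 95% and on the mean of the lanes. A count of 0 allowed up to 3 counts. Genes averaging at least 20 CPM entered, the 6 gate genes apart, and 4-fold was the limit for a call. The text names genes of the lists, the 20 highest ratios (in at least 25% of members), the 10 lowest (at least 100 CPM elsewhere), the 10 highest against the comparison classes, and genes the study followed. Members and lists were chosen with earlier results of these data known. Exons of 4 of 377 named genes (Capn3, Clec1b, Gp1bb, Mafg) overlap another gene on the same strand, and those of 95 a gene on the other strand. Whether counting used strand is not given in the sources used here. Doublets were called with Scrublet in scanpy 1.11.5 and left in. TMM factors came from edgeR 4.0.16. A few of these genes are not reported here. Scripts were tested on simulated data.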

Additional observations from a re-analysis of the deposited data

Results flagged for a closer look

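Transcripts of 9 genes of the lineage were also looked for in the 1483 barcodes that the filters left out and no comparison used, where a count of 0 allows 1.14 CPM. Of these genes 7 were above that limit and above the kept cells that were not members. Pf4 was at 48.82 CPM, from 128 UMIs in 91 barcodes, against 7.95 CPM in the kept cells that were not members. Of these barcodes 2 met the gate of the members, and without them Pf4 was at 29.4 CPM. Ppbp was at 12.78 CPM (5.16 CPM without these 2), Gp5 at 5.721 CPM (5.54 CPM) and Clec1b at 1.907 CPM (0.191 CPM). Outside the gate genes, Itga2b was at 4.004 CPM (3.25 CPM without these 2), Plek at 4.386 CPM (1.53 CPM) and Treml1 at 1.716 CPM (0.955 CPM). Without the 2 barcodes, Clec1b and Treml1 thus fell below the limit of a count of 0. The other gate genes were not higher there or lay below that limit, Gp9 at 8.77 CPM against 10.6 CPM in the kept cells and Gp1ba at 0.953 CPM.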

How the results depend on the processing

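Under other filters and gates the number of members stayed between 88 and 105, 88 with at least 500 genes per barcode and 105 with a gate sum of 1000 CPM, while thinning kept 84 and leaving out the shallow group 67. The 4 barcodes that a gate sum of 1000 CPM added took the lower genes from 335 to 246, of which 238 were among the main calls. Leaving out the members of another gate gave 441 lower genes, with 325 of the main calls. The ratios of 33 and 48 of the 227 named genes then left their main intervals, as did those of 158 with the mean of the CPM of each cell, 167 with thinning and 88 without the members over 100000 UMIs. With the mean of the CPM of each cell, 829 genes were at least 4-fold lower, and 644 with every cell thinned to 2000 UMIs, against 335. With no filter on low genes 1726 genes were higher and 1093 lower, and with an average of at least 50 CPM 305 and 178, since other numbers of genes were tested. Leaving out a lane gave 540 to 544 higher and 337 to 343 lower genes, and 97 to 99 members. The ratio of Ltbp1 turned to −0.71 with thinning, and the cause was not tested. It was the only one of the 166 named genes past 4-fold that changed sign under any alternative run, and of the 61 under 4-fold 19 did. Members over 100000 UMIs and the shallow group were left out as alternatives chosen after seeing the data. Without the first, 494 genes were higher and 364 lower, of which 448 and 267 were among the main calls. Without the second, the counts were 542 and 336. TMM factors moved the median ratio of all genes to −0.16, with 501 higher and 381 lower. No paired analysis was possible because the lanes are runs of the same cells and the results come from no test. Depth limits shallow members, of which 17 had too few UMIs to be thinned.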
